A study of Mus musculus with 5 samples.

Results

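The cell division genes of mouse embryonic stem cells (ESCs) were followed in 5 ESC lines, 2 wild-type and 3 without a functional ECAT11 gene. The set held the A, B, D and E cyclins, the numbered cyclin-dependent kinases, 5 kinase inhibitors, the 3 pocket proteins, E2f1 to E2f8, the 3 Cdc25 phosphatases, and the replication licensing genes Mcm2 to Mcm8, Mcm10, Cdc6, Cdt1 and Gmnn. Members were chosen by gene name among the non-control probes of a one-colour Agilent mouse array. The name rule uses no measured value, but it was set with earlier results of these data known. This gave 86 probes for 50 genes, out of 41174 probes, and no probe carried the name Mcm9. ECAT11 (L1td1) is an ESC-associated transcript that holds part of the first open reading frame of an L1 retrotransposon, and the study asked whether ESCs change when it is disrupted. No probe of the array is named ECAT11, so the transcript itself was not analysed here.

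The wild-type lines were RF8, the parental line of 129sv origin, labelled male, and #620-2, of C57BL6/129sv origin, labelled female. The ECAT11EGFP/EGFP lines were #620-6, labelled female, and #757-1 and #757-2, labelled male, all of C57BL6/129sv origin. In these 3 lines both alleles had the coding region replaced by EGFP, an internal ribosome entry site and a puromycin resistance gene, an allele that came from 1 targeted clone. All 4 lines other than RF8 came from blastocysts of ECAT11WT/EGFP intercrosses, and RF8 was the line in which the allele was made, so it differs from the others in strain and derivation as well. Each line was measured once, after culture with LIF on gelatin. The line was thus the replicate. The p-values set a difference against the spread among these arrays, in which line, culture and array cannot be told apart. The female label was carried only by the 2 lines whose names begin with #620, so the sex label cannot be told apart from that origin.

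Cyclins are the regulatory partners of the cyclin-dependent kinases. D cyclins with Cdk4 or Cdk6 and E cyclins with Cdk2 phosphorylate the pocket proteins, which releases E2F factors that switch on genes of DNA replication. The Mcm helicase subunits are loaded on origins by Cdc6 and Cdt1, a step called licensing, which geminin (Gmnn) blocks once replication has begun. Mouse ESCs are known for a short G1 phase, abundant cyclin E and little dependence on the D cyclin step.

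All levels below are log2 signals, as scanner signal over the 75th percentile of all signals of that array, so that 0 is the level at that percentile and 1 unit is a 2-fold difference. Levels are compared between lines for one probe, since probes differ in how brightly they hybridise. Ranks of brightness and the sums over marker genes are the exceptions, and such sums weigh bright probes most. A probe was kept when it was well above background on at least 1 of the 5 arrays, which left 79 probes for 49 genes. Of these, 71 were well above background in all 5 lines and 8 in fewer, and the only Ccnb3 probe was among the 7 not kept. The others not kept were 1 probe each of Cdk8, Cdkn1b, E2f3, E2f5, Mcm4 and Rb1, genes that had another kept probe. RF8, #620-2 and #620-6 lay on 1 slide and #757-1 and #757-2 on another. The arrays of the first slide had 26371 to 27144 probes well above background and those of the second 21250 to 22061. All 79 member probes were well above background in each line of the first slide, and 73 and 71 in #757-1 and #757-2. The 6 ESC marker genes with a probe (Esrrb, Nanog, Pou5f1, Sox2, Tdgf1 and Zfp42) were well above background in all 5 lines. They did not run level, with Zfp42 at 3.87 in #757-2 and 4.01 in #620-6 against 6.56 in #757-1, 6.80 in #620-2 and higher still in RF8, and Nanog from 2.54 in RF8 to 4.54 in #620-6. The Y-linked markers and Xist matched the sex label of all 5 lines. The array compares RNA of whole cultures, in which fewer cells in a cell cycle phase and less RNA per cell cannot be told apart.

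Promoters are shown for 4 members that carry the promoter words known from cell cycle genes, Mcm6, Mcm5, Cdc6 and Ccnb2, so that these words can be read beside their levels further on. Each is the stretch from 180 to 1 bases before the annotated start in RefSeq (GRCm38.p6), written 5′ to 3′ on the strand of the gene. In Mcm6, Mcm5 and Cdc6 the capitals mark the E2F-type words TTTCCCGC, TTTGGCGC or TTTCGCGC on either strand, and words that overlap form 1 run of capitals. In Ccnb2 they mark CCAAT.
Mcm6 (chr1:128359706-128359885, minus strand): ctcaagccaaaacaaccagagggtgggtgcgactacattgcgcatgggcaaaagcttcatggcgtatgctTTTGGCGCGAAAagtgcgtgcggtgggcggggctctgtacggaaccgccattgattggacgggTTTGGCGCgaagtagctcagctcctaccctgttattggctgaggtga
Mcm5 (chr8:75109329-75109508, plus strand): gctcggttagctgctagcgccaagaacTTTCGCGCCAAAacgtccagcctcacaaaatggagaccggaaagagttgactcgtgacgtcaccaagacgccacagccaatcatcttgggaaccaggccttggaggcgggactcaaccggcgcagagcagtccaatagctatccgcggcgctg
Cdc6 (chr11:98907971-98908150, plus strand): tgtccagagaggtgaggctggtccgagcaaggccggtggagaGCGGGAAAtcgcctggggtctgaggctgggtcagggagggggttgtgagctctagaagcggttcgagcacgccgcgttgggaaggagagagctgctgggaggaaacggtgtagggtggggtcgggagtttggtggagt
Ccnb2 (chr9:70421555-70421734, minus strand): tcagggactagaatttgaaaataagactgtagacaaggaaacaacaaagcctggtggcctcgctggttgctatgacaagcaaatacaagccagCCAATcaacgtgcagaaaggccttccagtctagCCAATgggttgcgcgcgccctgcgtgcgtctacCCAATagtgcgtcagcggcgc
Mcm6 held 3 E2F-type words in this stretch, Mcm5 held 2 that overlap on opposite strands, and Cdc6 held 1. Ccnb2 held 3 CCAAT words, all on the strand of the gene. Of the 50 member genes, 38 had a promoter in the table, each of 300 bases with 250 of them before the start. An E2F-type word was found in 15 of these 38 genes (39.5%), against 2.12% of all 27025 genes in the table. By role, it was found in 7 of 9 licensing genes, 3 of 6 E2F genes, 2 of 8 kinases and 0 of 6 cyclins. Ccna2, Ccnd1, Ccnd2 and Ccne2 had no promoter there, so the cyclin share leaves them out. CCAAT was found in 25 of the 38 genes (65.8%), against 41.1% of all genes. A match of letters is a description and not a binding site.

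No member was called between the genotypes. Limma called 0 of the 79 kept member probes at an adjusted p under 0.05 and more than 2-fold apart, against 1 of all 28972 kept probes (0.00345%). At an unadjusted p under 0.05 there were 2 member probes, 1 of Cdkn1b and 1 of Cdc25b, where 7.60% of all kept probes reached this level. Both were lower in ECAT11EGFP/EGFP ESCs, against 3.53% of all kept probes, and 0 members were higher, against 4.07%. The median log2 difference of the members was 0.0029, against -0.019 over all kept probes. The 2 genotypes did not overlap in 17 of the 79 probes, 8 higher and 9 lower in ECAT11EGFP/EGFP ESCs, against 23.5% of all kept probes. An exact permutation test of 2 lines against 3 cannot give a p below 0.1, so no single probe could pass by that test.

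The members as a whole varied between lines about as much as other probes. The median range differed between the roles, from the licensing probes to the inhibitors, and so did brightness. Over the 71 probes well above background in all lines, the median range from the lowest to the highest line was 0.52, against 0.60 for all 20622 such probes. The range exceeded 2-fold in 16 of the 71 (22.5%), against 23.5% of all such probes. The median range was 0.36 for licensing probes, 0.37 for cyclins, 0.42 for pocket proteins, 0.51 for Cdc25 phosphatases, 0.53 for kinases, 0.65 for E2F factors and 1.00 for inhibitors. Bright probes vary less on these arrays, and 20 members had a mean log2 signal over 3. Their median range was 0.30, against 0.38 for the 3234 probes of that brightness. Most licensing probes were that bright and no inhibitor probe was. The dimmer Cdc6 probe had a range of 1.21 and the Mcm8 probes 0.73 and 0.77. The brightest inhibitor probe, of Cdkn2d, had 0.33. The roles were not compared at equal brightness, and its part in their ranges was not tested.

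**Figure D1:**
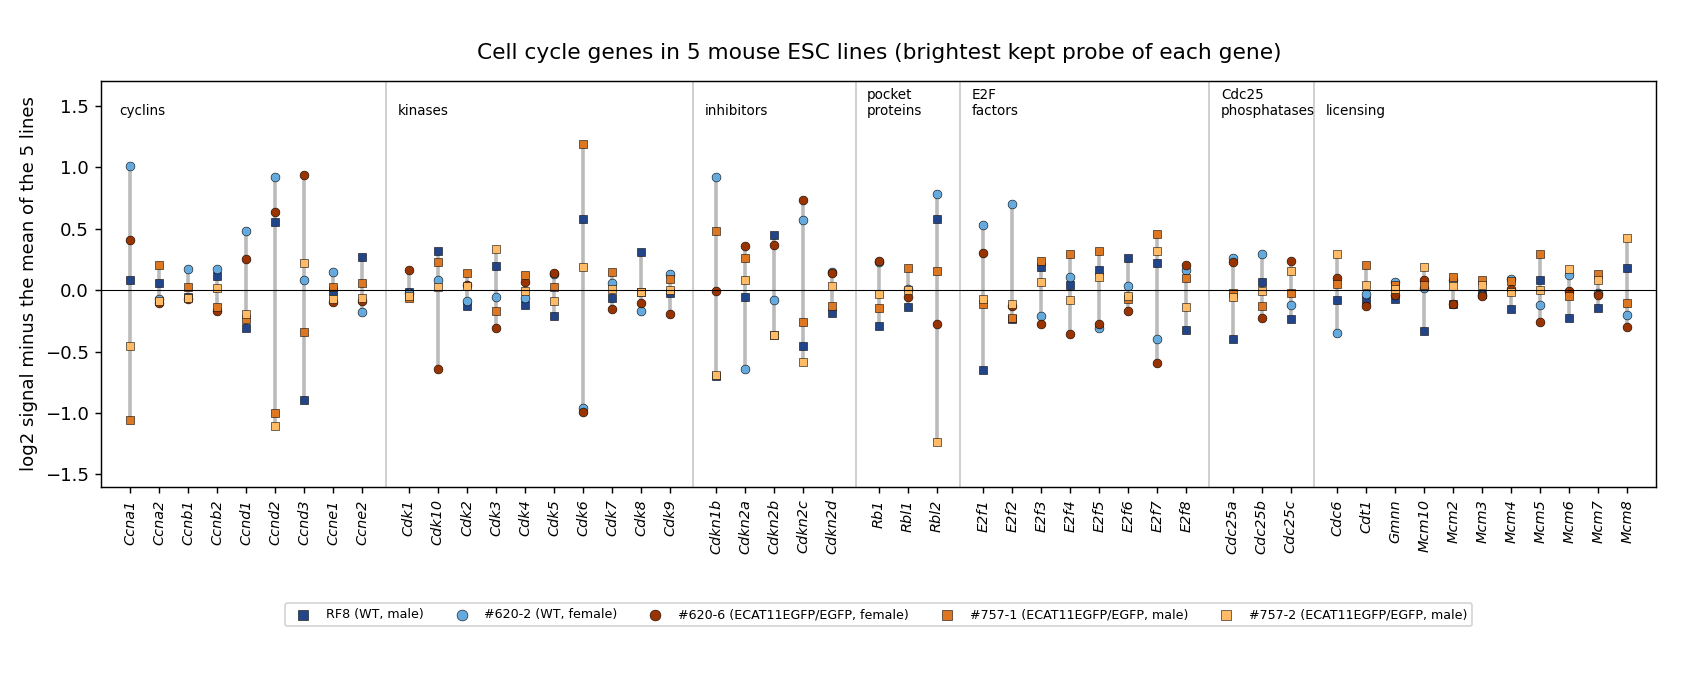
Log2 signal of each line minus the mean of the 5 lines (vertical axis), for the brightest kept probe of each of the 49 genes, by role. Points are single arrays, 1 per line, and grey bars run from the lowest to the highest line. Mcm3 and Gmnn spanned 0.13 and 0.14, while Ccnd2 and Cdk6 spanned 2.02 and 2.19.

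**Figure D2:**
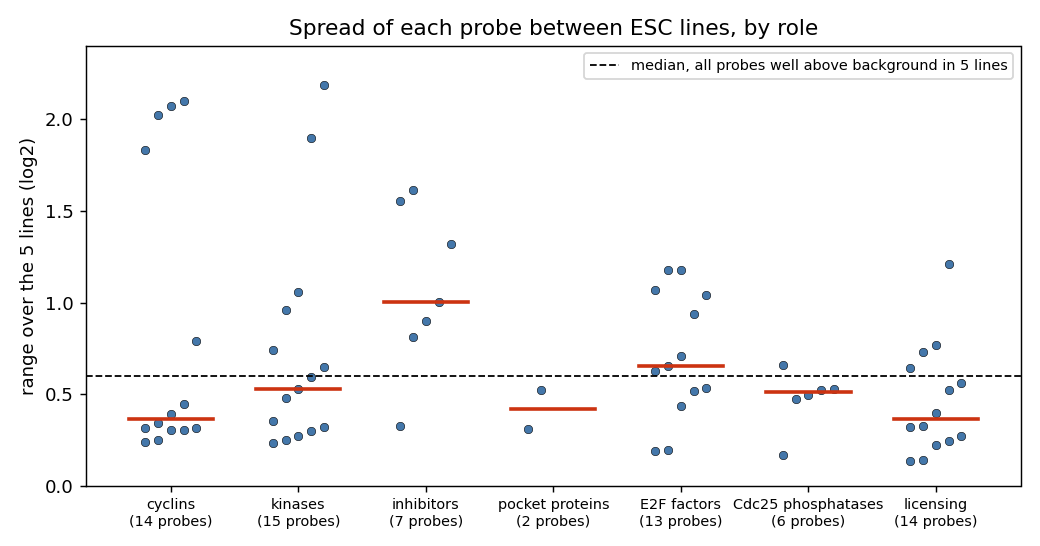
Range over the 5 lines, highest minus lowest log2 signal (vertical axis), for the 71 member probes well above background in all lines, by role. Points are probes, red lines are medians of a role, and the dashed line is the median of all such probes on the array (0.60). Inhibitors had the highest median (1.00) and licensing probes the lowest (0.36).

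The D cyclins, which couple growth signals to Cdk4 and Cdk6, had the widest ranges among the cyclin probes well above background in all 5 lines. Ccnd1 (cyclin D1) was measured at 1.94 in RF8, 2.73 in #620-2, 2.50 in #620-6, 2.01 in #757-1 and 2.05 in #757-2. Both #620 lines were above the other 3, and the genotypes overlapped, with means of 2.33 ± 0.56 over the wild-type lines (SD, n = 2) and 2.19 ± 0.27 over the ECAT11EGFP/EGFP lines (SD, n = 3). The genotype difference was -0.14 ± 0.32 (SE, adjusted p = 0.971) and the difference between the sex labels, female minus male, was 0.60 ± 0.15 (SE, adjusted p = 0.147), by limma.

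Ccnd2 (cyclin D2) had 3 probes, at chr6:127154070-127154129, chr6:127163669-127163728 and chr6:127173178-127173237 on mm7, and all were lower in both #757 lines than in the other 3. The brightest gave 2.01 in RF8, 2.38 in #620-2, 2.09 in #620-6, 0.46 in #757-1 and 0.36 in #757-2. The probe with the widest range of all cyclin probes gave 1.17 in RF8, 1.68 in #620-2, 1.47 in #620-6, -0.42 in #757-1 and -0.39 in #757-2. Both #757 lines were low, and #620-6, the other ECAT11EGFP/EGFP line, lay with the wild-type lines. The genotype differences of the 3 probes ran from -1.23 to -1.17, the brightest having -1.23 ± 0.61 (SE, adjusted p = 0.758). With the slide as a block, the #757 lines drop out, since they alone make up the second slide. The genotype difference then sets #620-6 alone against RF8 and #620-2. For these 3 probes it was -0.10, 0.11 and 0.046, so that the low values went with the second slide. Slide and line number #757 cannot be told apart here. Between the sex labels the third probe differed by 1.29 ± 0.37 (SE, adjusted p = 0.182). This was 0.50 with the slide as a block or without #620-6, where it is #620-2 minus RF8, and 1.87 without either wild-type line.

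Ccnd3 (cyclin D3) was highest in #620-6 and lowest in RF8, with 2.24 in RF8, 3.22 in #620-2, 4.08 in #620-6, 2.79 in #757-1 and 3.35 in #757-2. It had the smallest sex label p of the cyclins, although #757-2 lay above #620-2, and the labels thus overlapped. The difference was 0.99 ± 0.23 (SE, adjusted p = 0.138), and by genotype it was 0.68 ± 0.50 (SE, adjusted p = 0.864).

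The E and B cyclins and cyclin A2 varied less. Ccne1 (cyclin E1), the partner of Cdk2 at the start of S phase, had 6.14 in RF8, 6.30 in #620-2, 6.05 in #620-6, 6.18 in #757-1 and 6.08 in #757-2. The lines lay within 0.25 of one another, and the genotype difference was -0.12 ± 0.15 (SE, adjusted p = 0.935). Ccne2 (cyclin E2) had 0.011 in RF8, -0.43 in #620-2, -0.35 in #620-6, -0.20 in #757-1 and -0.32 in #757-2, with RF8 highest and the genotypes overlapping.

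Ccna2 (cyclin A2), which acts in S phase and G2, had 4.48 in RF8, 4.35 in #620-2, 4.31 in #620-6, 4.63 in #757-1 and 4.33 in #757-2. Ccnb1 (cyclin B1), the mitotic partner of Cdk1, had 3.93 in RF8, 4.16 in #620-2, 3.92 in #620-6, 4.01 in #757-1 and 3.92 in #757-2. The genotypes overlapped in both genes, with ranges of 0.31 and 0.24. Ccnb2, the other B cyclin, whose promoter is printed above, gave 5.61 in RF8, 5.67 in #620-2, 5.33 in #620-6, 5.36 in #757-1 and 5.51 in #757-2, a range of 0.34. Both wild-type lines lay above all ECAT11EGFP/EGFP lines, by a difference of -0.24 ± 0.15 (SE, adjusted p = 0.830). Ccna1, a cyclin known from the germline, was the exception, with -3.71 in RF8, -2.78 in #620-2, -3.38 in #620-6, -4.85 in #757-1 and -4.25 in #757-2. Its range was 2.07, but it was dim and well above background on the first slide only, so its range has no measured lower end.

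**Figure D3:**
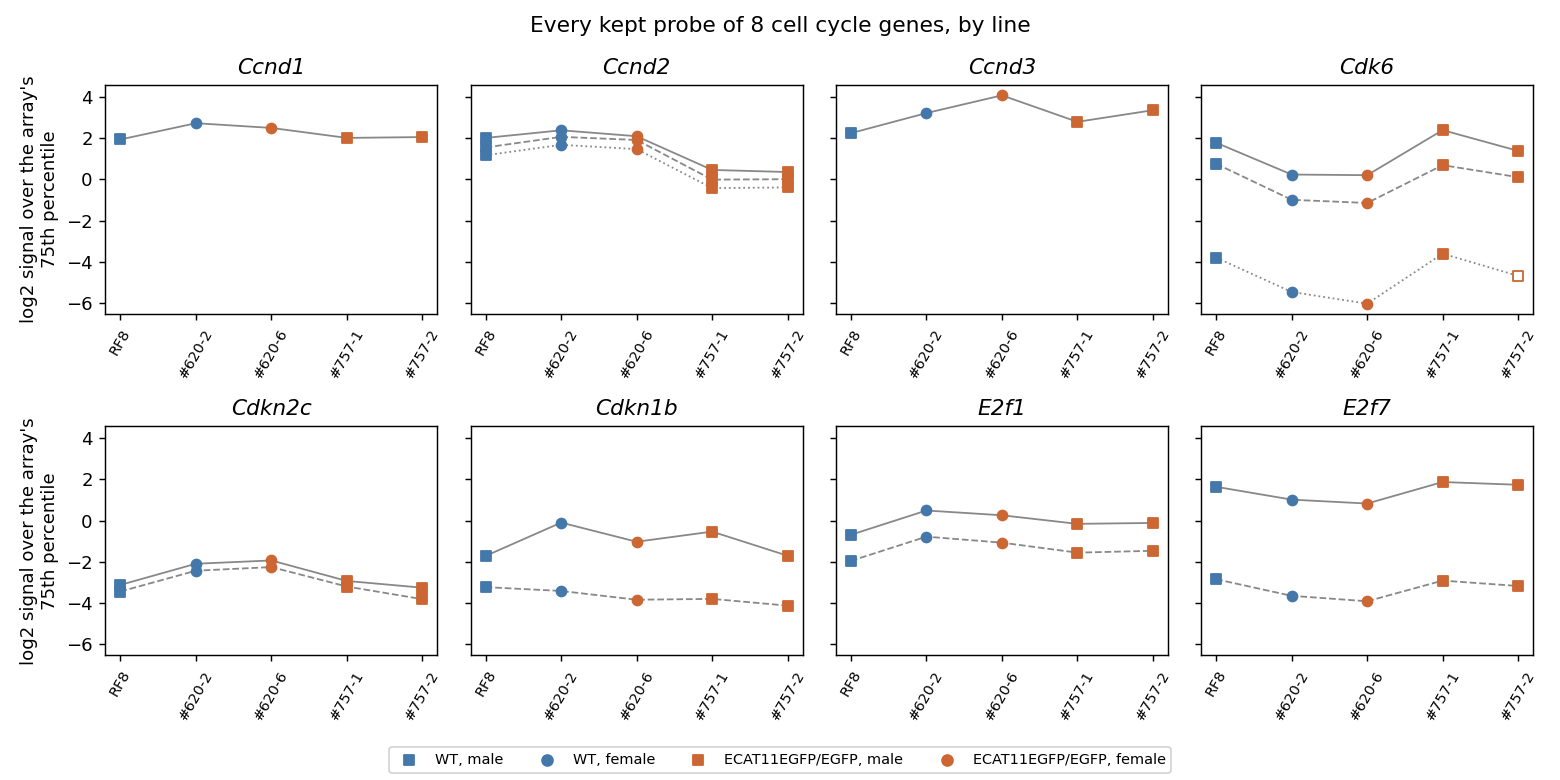
Log2 signal over the 75th percentile of the array (vertical axis) in each line, for every kept probe of 8 cell cycle genes. Lines join the values of 1 probe, colour gives the genotype, shape the sex label, and an open symbol a value not well above background. Ccnd2 was low in both #757 lines by all 3 probes, and Cdk6 was low in both #620 lines by all 3.

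Among the kinases, Cdk6 stood apart. Cdk6 is a partner of the D cyclins and had 3 kept probes. The brightest gave 1.78 in RF8, 0.24 in #620-2, 0.20 in #620-6, 2.39 in #757-1 and 1.38 in #757-2. The one with the smallest sex label p of all kinase probes gave 0.76 in RF8, -0.99 in #620-2, -1.14 in #620-6, 0.69 in #757-1 and 0.11 in #757-2. The one with the widest range gave -3.79 in RF8, -5.46 in #620-2, -6.03 in #620-6, -3.60 in #757-1 and -4.68 in #757-2, and was not well above background in #757-2. Both #620 lines were below the other 3 by each probe, and the genotypes overlapped by each.

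For the second of these Cdk6 probes the means were -1.07 ± 0.11 (SD, n = 2) in the lines labelled female and 0.52 ± 0.36 (SD, n = 3) in those labelled male. The difference was -1.63 ± 0.24 (SE, adjusted p = 0.0919) by limma, the smallest adjusted p among the members in this comparison. It was called with normexp background correction (-1.50, adjusted p = 0.0448) and with an intensity trend in the variance (-1.63, adjusted p = 0.0401). Under the other alternatives, leaving out each line included, it was not called, with adjusted p from 0.0712 to 0.271. The dim probe differed by -1.79 ± 0.39 (SE, adjusted p = 0.132). By genotype the second probe differed by 0.0010 ± 0.78 (SE, adjusted p = 1) and the dim one by -0.14 ± 0.89 (SE, adjusted p = 0.990).

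Cdk4, the other D cyclin partner, had 3.49 in RF8, 3.55 in #620-2, 3.67 in #620-6, 3.73 in #757-1 and 3.60 in #757-2. Its lines spanned 0.25, while those of Cdk6 spanned 2.19 by its brightest probe. Every ECAT11EGFP/EGFP line lay above both wild-type lines, but the difference was only 0.15 ± 0.14 (SE, adjusted p = 0.900). Cdk1, named Cdc2a on the array and the kinase of mitosis, had 2.87 in RF8, 2.86 in #620-2, 3.05 in #620-6, 2.82 in #757-1 and 2.83 in #757-2. The genotypes overlapped, with a difference of 0.037 ± 0.16 (SE, adjusted p = 0.983).

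Cdk2, the kinase of cyclins E and A, had -2.37 in RF8, -2.33 in #620-2, -2.19 in #620-6, -2.09 in #757-1 and -2.20 in #757-2 by its brighter probe and -4.19 in RF8, -4.44 in #620-2, -4.12 in #620-6, -3.96 in #757-1 and -3.85 in #757-2 by the other. In both, all 3 ECAT11EGFP/EGFP lines lay above both wild-type lines. The differences were 0.19 ± 0.14 (SE, adjusted p = 0.868) and 0.34 ± 0.18 (SE, adjusted p = 0.771), and the second was the kinase probe with the smallest genotype p. Cdk7 and Cdk9, which also act in transcription, had ranges of 0.30 and 0.32 by their brightest probes. Cdk10 was lowest in #620-6 by both probes, with ranges of 0.96 and 1.06. Cdk3, which RefSeq lists as a transcribed pseudogene, had a range of 0.65.

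The kinase inhibitors had the highest median range of all roles, and limma called none of them between the genotypes. Cdkn1b (p27), an inhibitor of Cdk2 complexes, had -1.71 in RF8, -0.094 in #620-2, -1.02 in #620-6, -0.53 in #757-1 and -1.70 in #757-2 by its brighter probe. This was the widest range of the inhibitors (1.62), with #620-2 highest and RF8 and #757-2 lowest, and the genotype difference was -0.18 ± 0.61 (SE, adjusted p = 0.979). Its other kept probe, at chr6:134935407-134935465 (mm7), gave -3.22 in RF8, -3.41 in #620-2, -3.83 in #620-6, -3.79 in #757-1 and -4.12 in #757-2.

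By that second Cdkn1b probe both wild-type lines lay above all ECAT11EGFP/EGFP lines, with means of -3.32 ± 0.13 over the wild-type lines (SD, n = 2) and -3.92 ± 0.18 over the ECAT11EGFP/EGFP lines (SD, n = 3). The difference was -0.60 ± 0.18 (SE, adjusted p = 0.569), and the unadjusted p of 0.0241 was the smallest of all members. The 2 Cdkn1b probes thus gave a different order of lines. The second had -0.52 with the slide as a block and -0.23 under normexp (unadjusted p = 0.105).

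Cdkn2a, the Ink4a and Arf locus, is measured by a probe whose accessions hold both transcripts. It gave -2.51 in RF8, -3.09 in #620-2, -2.09 in #620-6, -2.19 in #757-1 and -2.37 in #757-2. All ECAT11EGFP/EGFP lines lay above both wild-type lines, and the difference was 0.59 ± 0.24 (SE, adjusted p = 0.688), not called by limma. It was 0.29 without #620-2 and 0.88 without RF8. Its neighbour Cdkn2b (p15), an inhibitor of Cdk4 and Cdk6, gave 1.12 in RF8, 0.59 in #620-2, 1.04 in #620-6, 0.30 in #757-1 and 0.30 in #757-2, with #757-1 and #757-2 lowest and the genotypes overlapping.

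Cdkn2c (p18), another inhibitor of Cdk4 and Cdk6, had 2 probes on chromosome 4 that overlap in sequence and are not independent. The brighter gave -3.12 in RF8, -2.09 in #620-2, -1.93 in #620-6, -2.92 in #757-1 and -3.25 in #757-2. Both #620 lines lay above the other 3, with means of -2.01 ± 0.11 (SD, n = 2) in the lines labelled female and -3.10 ± 0.16 (SD, n = 3) in those labelled male. The sex label difference was 1.10 ± 0.17 (SE, adjusted p = 0.0939), the smallest p of the inhibitors, and the genotype difference was -0.10 ± 0.53 (SE, adjusted p = 0.987). Cdkn2d (p19) varied least among the inhibitors, with a range of 0.33.

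The pocket proteins bind E2F factors and hold back their targets. Rb1, the retinoblastoma protein gene, gave -0.064 in RF8, 0.45 in #620-2, 0.46 in #620-6, 0.083 in #757-1 and 0.19 in #757-2. Both #620 lines lay above the other 3, by 0.41 ± 0.13 (SE, adjusted p = 0.215), and by genotype the difference was 0.051 ± 0.24 (SE, adjusted p = 0.985). Rbl1 (p107) gave -0.16 in RF8, -0.013 in #620-2, -0.077 in #620-6, 0.15 in #757-1 and -0.022 in #757-2, and the genotypes overlapped within a range of 0.31.

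Rbl2 (p130), the pocket protein of resting cells, was dim. The brighter of its probes gave -2.53 in RF8, -2.33 in #620-2, -3.39 in #620-6, -2.95 in #757-1 and -4.35 in #757-2 and was well above background in 4 lines. It had the widest range and the smallest genotype p of the pocket protein probes, both wild-type lines lay above the other 3, and the difference was -1.13 ± 0.45 (SE, adjusted p = 0.681). The dimmer probe, well above background in 3 lines, gave -4.94 in RF8, -3.58 in #620-2, -3.87 in #620-6, -4.67 in #757-1 and -4.93 in #757-2. By this one both #620 lines lay above the rest, by 1.12 ± 0.18 (SE, adjusted p = 0.0998), and the genotypes overlapped, with a difference of -0.23 ± 0.54 (SE, adjusted p = 0.972).

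E2f1, an activator of S phase genes, gave -0.69 in RF8, 0.49 in #620-2, 0.26 in #620-6, -0.16 in #757-1 and -0.11 in #757-2. Both #620 lines were highest and RF8 lowest, and its second probe had the same order of labels. The sex label difference was 0.73 ± 0.24 (SE, adjusted p = 0.206) and the genotype difference 0.10 ± 0.40 (SE, adjusted p = 0.983). E2f4, a factor that acts with pocket proteins as a repressor, gave -0.89 in RF8, -0.82 in #620-2, -1.29 in #620-6, -0.64 in #757-1 and -1.01 in #757-2, with #620-6 lowest and the genotypes overlapping.

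E2f7, an E2F repressor that acts without pocket proteins, ran the other way from E2f1. Its dimmer probe gave -2.84 in RF8, -3.64 in #620-2, -3.91 in #620-6, -2.91 in #757-1 and -3.17 in #757-2. Both #620 lines lay below the other 3 by -0.84 ± 0.15 (SE, adjusted p = 0.108), the smallest sex label p of the E2F probes, and its brighter probe differed by -0.82 ± 0.16 (SE, adjusted p = 0.115). Both E2f5 probes and the brightest E2f3 probe also lay lower in both #620 lines, by -0.48, -0.46 and -0.42.

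E2f8, the close relative of E2f7, had probes that disagreed. The dim one gave -4.48 in RF8, -5.27 in #620-2, -5.28 in #620-6, -6.72 in #757-1 and -6.46 in #757-2 and was well above background only in the 3 lines of the first slide. It had the widest range and smallest genotype p of the E2F probes, with a difference of -1.28 ± 0.53 (SE, adjusted p = 0.702). With the slide as a block this was -0.41, and the brighter E2f8 probe, well above background in all lines, differed by only 0.14 ± 0.23 (SE, adjusted p = 0.957).

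The Cdc25 phosphatases remove inhibitory phosphates from the kinases. Cdc25a, which acts at G1/S, gave 0.041 in RF8, 0.70 in #620-2, 0.67 in #620-6, 0.42 in #757-1 and 0.38 in #757-2. Both #620 lines were highest and RF8 lowest, and it had the smallest sex label p of this role, with a difference of 0.44 ± 0.16 (SE, adjusted p = 0.233). Of the Cdc25b probes, the dimmest gave -5.16 in RF8, -4.89 in #620-2, -5.54 in #620-6, -5.55 in #757-1 and -5.47 in #757-2, with both wild-type lines above the other 3 and only the lines of the first slide well above background. Its genotype difference was -0.50 ± 0.16 (SE, adjusted p = 0.591), with an unadjusted p of 0.0303. Under normexp limma gave -0.043, with an unadjusted p of 0.746, and the variance trend gave an unadjusted p of 0.199. The brighter Cdc25b probes differed by -0.30 and -0.24. Cdc25c had ranges of 0.48 and 0.17 by its 2 probes.

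The licensing genes had the lowest median range of all roles. For Mcm2 to Mcm7, the 6 subunits of the replicative helicase, the brightest probe of each had a median range of 0.26, from 0.13 in Mcm3 to 0.56 in Mcm5. Mcm2 gave 3.83 in RF8, 4.02 in #620-2, 3.83 in #620-6, 4.05 in #757-1 and 3.97 in #757-2, and the genotype difference was 0.027 ± 0.16 (SE, adjusted p = 0.989). Mcm5 gave 5.25 in RF8, 5.04 in #620-2, 4.90 in #620-6, 5.46 in #757-1 and 5.16 in #757-2, with #757-1 highest and both #620 lines lowest. Mcm6, with 3 E2F-type words in the printed stretch, gave 6.38 in RF8, 6.73 in #620-2, 6.60 in #620-6, 6.56 in #757-1 and 6.78 in #757-2, a range of 0.40 with RF8 lowest.

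Gmnn (geminin), the inhibitor of Cdt1, gave 6.25 in RF8, 6.39 in #620-2, 6.28 in #620-6, 6.37 in #757-1 and 6.33 in #757-2. Its range of 0.14 was among the narrowest of all members, and the genotype difference was 0.0093 ± 0.15 (SE, adjusted p = 0.997). Cdt1, its target and a loader of the helicase, gave 5.83 in RF8, 5.88 in #620-2, 5.79 in #620-6, 6.12 in #757-1 and 5.96 in #757-2, a range of 0.33 with the genotypes overlapping.

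Cdc6, the other loader, varied more than Cdt1 and Gmnn. Its brighter probe gave 2.26 in RF8, 1.99 in #620-2, 2.43 in #620-6, 2.39 in #757-1 and 2.63 in #757-2, and all ECAT11EGFP/EGFP lines lay above both wild-type lines. The means were 2.12 ± 0.19 over the wild-type lines (SD, n = 2) and 2.48 ± 0.13 over the ECAT11EGFP/EGFP lines (SD, n = 3), and the difference was 0.36 ± 0.18 (SE, adjusted p = 0.752), the smallest genotype p of the licensing probes. Its dimmer probe gave -1.03 in RF8, -1.81 in #620-2, -1.07 in #620-6, -0.74 in #757-1 and -0.59 in #757-2, with #620-2 lowest. RF8 lay above #620-6 in this probe, so the genotypes overlapped there. It had the widest range (1.21) and the smallest sex label p of the role, and differed by 0.62 ± 0.31 (SE, adjusted p = 0.757) between the genotypes and by -0.56 ± 0.16 (SE, adjusted p = 0.179) between the sex labels. The genotype value was 0.23 without #620-2, 1.01 without RF8 and 0.35 with the slide as a block. Mcm10, which acts after licensing, had a range of 0.52, and Mcm8, a relative that acts in DNA repair, 0.73 and 0.77 by its probes.

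Between the sex labels, with genotype in the fit, limma called 0 of the 79 member probes and 0 of all 28971 tested (0%). At an unadjusted p under 0.05 there were 22 member probes for 14 genes, against 22.1% of all kept probes. Of these, 12 were higher in the lines labelled female (11.6% of all kept probes), among them probes of Ccnd1, Ccnd2, Ccnd3, Cdkn2c, E2f1, Rb1 and Rbl2. The other 10 were lower (10.5% of all), among them probes of Cdk6, Cdk10, E2f3, E2f5, E2f7 and Cdc6. The labels did not overlap in 33 of the 79 probes, against 39.0% of all kept probes. The count of all probes called depended on the settings, with 455 under normexp, 64 under quantile normalization, 19 under a filter of 3 arrays, 655 under a variance trend and 99 without the genotype term. The member among those under normexp and the variance trend was the Cdk6 probe above.

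Some markers of other cell types moved with the same lines. Of the 9 feeder or fibroblast markers, 8 were well above background in all 5 lines and none was at background in every line. Their summed level, as multiples of the 75th percentile, came to 63.4 in #620-2 and 66.6 in #620-6, against 16.6 in RF8, 2.95 in #757-1 and 5.33 in #757-2. Most of the level in the #620 lines was that of S100a4 (48.9 and 52.1), and without it the sum came to 15.7 in RF8, 14.5 in #620-2, 14.5 in #620-6, 2.64 in #757-1 and 4.95 in #757-2. S100a4 gave -0.063 in RF8, 5.61 in #620-2, 5.70 in #620-6, -1.66 in #757-1 and -1.40 in #757-2, and Fbln2 gave -1.59 in RF8, 2.34 in #620-2, 2.46 in #620-6, -1.86 in #757-1 and -1.53 in #757-2. In 6 of the 9 genes both #620 lines lay above the other 3, and in 1, Postn, both lay below. Col1a1 and Col1a2 were highest in RF8, at 2.98 and 2.52. The 8 markers of differentiating cells summed to 6.34 in RF8, 2.19 in #620-2, 1.46 in #620-6, 4.83 in #757-1 and 3.90 in #757-2. Both #620 lines lay below the other 3 in 4 of these genes, Fgf5, Nes, Pax6 and T, and above in 2, Gata6 and Sox17. Nes was the highest of the 8 in every line and so made the largest part of each sum. Gata6 gave -1.35 in #620-2 and -2.29 in #620-6, against -3.07 in RF8. Sox17 gave -2.64 in #620-2 and -2.99 in #620-6, against -4.99 in RF8. Of the 8, 4 were well above background in all 5 lines and none was at background in every line. The part of such cells in the differences of Ccnd1, Ccnd3, Cdkn2c, E2f1 and Cdk6 was not tested.

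**Figure D4:**
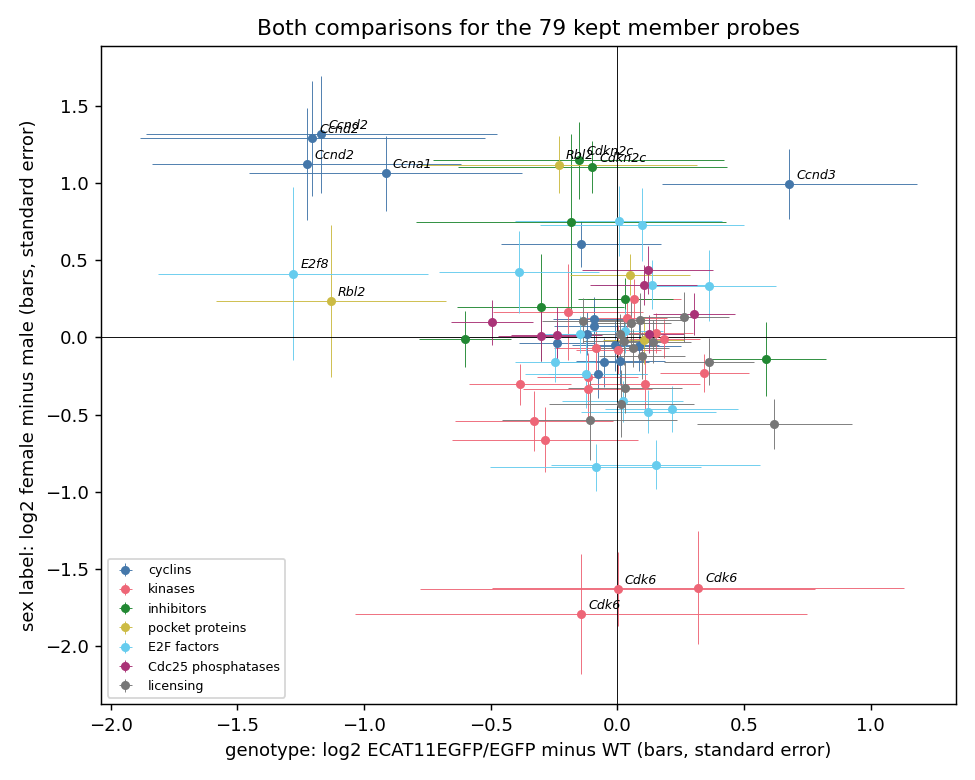
Difference between the sex labels, female minus male (vertical axis, log2), against the difference between the genotypes, ECAT11EGFP/EGFP minus wild-type (horizontal axis, log2), for the 79 kept member probes, coloured by role. Bars are standard errors from limma. The 3 Ccnd2 probes lie at -1.23 to -1.17 by genotype, and the 3 Cdk6 probes at -1.79 to -1.62 by sex label.

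Lines with the same leading number were close in most members. Between #620-2 and #620-6, which differ in genotype and share a slide and the sex label, 2 of 79 member probes were more than 2-fold apart (2.53%), against 7.10% of all probes well above background in both. These were the brighter Rbl2 probe (-1.06, #620-6 minus #620-2) and the Cdkn2a probe (1.00). Between #757-1 and #757-2, of 1 genotype and on 1 slide, there were 2 of 71 (2.82%), against 1.82%, the brighter probe of Cdkn1b and the brightest of Cdk6. Between #620-6 and #757-1, which share the genotype, there were 10 of 73 (13.7%), against 11.0%, the highest share of any pair. Between #620-6 and #757-2 there were 7 of 71 (9.86%), against 8.16%. RF8 differs from the #757 lines in genotype, strain and slide. It had 4 of 73 (5.48%) against #757-1 and 4 of 71 (5.63%) against #757-2, where all probes had 6.41% and 5.91%. These pairs have 1 array each and no test.

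A model with an interaction of genotype and sex label was also fitted, on 1 residual degree of freedom. Among the lines labelled male, the genotypes differed in slide, strain label and line number as well. The lines labelled female shared all of these. The interaction term thus cannot tell the sex label from slide, strain or line number. Whether the genotype difference depends on the sex label itself was not tested. Limma called 0 of the member probes and 0 of all 28915 tested (0%). At an unadjusted p under 0.05 there were 6 of 79 members, against 10.6% of all probes, and 3 of the 6 were the Ccnd2 probes.

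Other genes of the cell cycle were looked at by a list of 82 names in replication, mitosis and regulation, of which 72 genes had 117 kept probes. Limma called 0 of these by genotype and 0 by sex label. At an unadjusted p under 0.05 there were 5 of 117 by genotype, 4 higher and 1 lower in ECAT11EGFP/EGFP ESCs, against 7.60% of all kept probes. By sex label there were 10 of 117, 4 higher and 6 lower in the lines labelled female, against 22.1%. The median difference was 0.034 by genotype and -0.030 by sex label, against -0.019 and -0.017 over all kept probes. The smallest genotype p was that of a dim probe of Cenpa, the centromeric histone, with an adjusted p of 0.285 by limma. It was well above background in #620-6 alone, at -5.50. In #757-1 and #757-2 it was not, as in the wild-type lines, so the size of its genotype difference was not measured. Its other probe, well above background in all lines, differed by 0.42 ± 0.25 (SE, adjusted p = 0.809). A dim Dbf4 probe, also well above background in #620-6 alone, had an adjusted p of 0.604 by limma, and its difference was likewise not measured. The other 2 were a probe of Ccnh, the cyclin of Cdk7, with 0.62 ± 0.16 (SE, adjusted p = 0.495), and one of Pold1, a DNA polymerase subunit, with 0.47 ± 0.17 (SE, adjusted p = 0.636). This Ccnh probe was dim. The brightest Ccnh probe differed by -0.055, and the remaining ones by 0.020 and 0.36. The second Pold1 probe differed by 0.42. The 1 probe that was lower in ECAT11EGFP/EGFP ESCs was that of Pttg1 (securin), which holds back the separation of sister chromatids until anaphase. It gave 5.11 in RF8, 4.12 in #620-2, 3.04 in #620-6, 2.43 in #757-1 and 3.44 in #757-2, a difference of -1.64 ± 0.45 (SE, adjusted p = 0.519). The probe with the smallest sex label p of the list was Prim2, a subunit of DNA primase.

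Prim2 gave -1.21 in RF8, 1.92 in #620-2, 1.88 in #620-6, -1.35 in #757-1 and -1.25 in #757-2. Both #620 lines were higher than the other 3, by 3.16 ± 0.12 (SE, adjusted p = 0.0531) on the log2 scale. Pola1, the catalytic subunit of the polymerase that works with primase, gave 2.67 in RF8, 3.58 in #620-2, 3.63 in #620-6, 2.71 in #757-1 and 2.64 in #757-2, and differed by 0.93 ± 0.12 (SE, adjusted p = 0.0875). Among the licensing members, which act just before these enzymes, the widest sex label difference was that of the dimmer Cdc6 probe (-0.56). Of the 51 replication probes of the list, 4 had an unadjusted p under 0.05 by limma, against 22.1% of all kept probes. Prim2 and Pola1 were the 2 higher ones. The 2 lower ones were Rfc3, with -0.42 ± 0.13 (SE, adjusted p = 0.208), and Gins4, with -0.41 ± 0.14 (SE, adjusted p = 0.221). By limma, Prim1 had 0.11 ± 0.18 (SE, adjusted p = 0.767) and the Pold1 probes 0.047 and 0.0073.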

How the data were processed

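RNA of 5 ESC lines, 1 array each, was labelled with Cy3 and hybridised to one-colour Agilent arrays of 45018 spots. The authors scanned the arrays and extracted signals with Feature Extraction 9.5.3.1, and deposited the processed signal as an intensity per spot, together with flags. They also deposited a table of log2 values, set to the 75th percentile and centred per probe in GeneSpring. Its differences between lines matched those computed here (slope 1.000, Pearson r = 1.000, 20622 probes), and its column medians ran from -0.10 to 0.077. The array headers place probes on mm7.

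Here, log2 processed signals were set to the 75th percentile of all non-control spots of each array. Spots marked as outliers were left out, 0.335% of all and 2 of the member spots, and spots of a probe were averaged. Flags gave the filter, a probe well above background on at least 1 array. Genotype, sex label and their interaction were fitted with limma 3.58.1 in R 4.3.3 over all kept probes, with Benjamini-Hochberg adjustment, and called at an adjusted p under 0.05 and more than 2-fold. The sex label fit held genotype as a term. With 2 and 3 arrays, their number limits the precision.

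Members follow a name rule. Of the 86 probes, 71 were named through accessions in RefSeq and 15 through symbols or synonyms. Values in every line are given for well-known members by their brightest probe, and for the probe with the widest range and the smallest genotype and sex label p in each role. Ccnd2, Ccnb2, Ccna1, Cdkn2d, Cdc25c, E2f3, E2f5, Mcm6, Mcm8, Mcm10, Cdk3, Cdk7, Cdk9 and Cdk10 carry further values chosen after these were seen. The members and lists were chosen with earlier results of these data known. The fitting code was tested on simulated data, for the sex label fit and for genotype with the sex label as a covariate. The reported genotype fit, which has no such covariate, was not simulated. Figures were drawn with matplotlib 3.10.9. Normexp (offset 50), quantile normalization, other filters, a variance trend, the methods' t-test, terms for the slide or the sex label and leaving out each line were tried as alternatives.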

Additional observations from a re-analysis of the deposited data

How the results depend on the processing

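Each line was measured on 1 array, and replicate numbers only name the lines. No paired analysis was possible because the genotypes share only 1 line number, 620, carried by #620-2 and #620-6. Of 280 recomputed genotype differences of 20 named probes, 257 had the sign reported and 0 were called, and of 182 sex label differences of 13 probes, 175 had the sign and 2 were called, both of the Cdk6 probe with -1.50 under normexp and -1.63 under the variance trend. The count of all probes called by genotype was 0 under the methods' t-test after Benjamini-Hochberg adjustment, normexp, quantile normalization, the sex label as a covariate, the slide as a block and no filter, was 2 under a filter of 3 arrays, and ran from 0 to 0 with 1 line left out. By sex label it was 455 under normexp, 64 under quantile normalization, 19 under a filter of 3 arrays, 655 under the variance trend and 99 without the genotype term, of which the members called were 1 under normexp and 1 under the variance trend. The cause was not tested.

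Member probes at an unadjusted p under 0.05 by genotype were 7 with the sex label as a covariate, 4 by the methods' t-test, 0 with the brightest probe of each gene, and 0 to 6 with 1 line left out (0 without #757-2 and 6 without #620-6), where all probes reached 13.4%, 7.31%, 7.60% and 4.2% to 10.3%. By sex label they were 10 with the slide as a block and 10 to 15 with 1 line left out, against 18.3% and 14.1% to 20.7% of all probes. For the interaction they were 11 without a filter, against 31.4%, an alternative chosen after seeing the data. The member median by genotype was -0.091 with a slide block, and from one left-out line to another ran from -0.070 to 0.019. By sex label the slide block gave 0.12, and leaving out lines gave -0.047 to 0.12. The median of the other cell cycle list was -0.012 by genotype and 0.0029 by sex label under quantile normalization, and with 1 line left out it ran from 0.013 to 0.074 by genotype and from -0.080 to -0.014 by sex label.

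Signs turned in these genotype differences. Under normexp the dim Cdk6 probe had 0.018 and Gmnn -0.0099. Under quantile normalization Cdk1 had -0.010, Gmnn -0.048 and Mcm2 -0.011. With the slide as a block Ccnd1 had 0.17, the third Ccnd2 probe 0.046, Gmnn -0.037 and Mcm2 -0.095. With 1 line left out the genotype difference ran from -0.54 to 0.25 for Ccnd1, -0.49 to 0.68 for E2f1, -0.99 to 0.62 for the brighter Cdkn1b probe, -0.98 to 0.69 for the dim Cdk6 probe, -0.037 to 0.079 for Cdk1, -0.060 to 0.079 for Gmnn, -0.070 to 0.12 for Mcm2 and -0.21 to 0.31 for Rb1. Signs also turned by sex label. The dimmest Cdc25b probe had -0.050 and the dim E2f8 probe -0.042 under normexp, and E2f8 had -0.79 with the slide as a block. With 1 line left out the range was -0.030 to 0.27 for Cdc25b, -0.79 to 1.31 for E2f8 and -0.12 to 0.58 for the brighter Rbl2 probe. Several of these probes were dim, and their values on the second slide lie at or near background.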
